A study of Mus musculus with 4 samples.

Results

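The genes described here are the 8 that carry the main steps of peptide presentation by MHC class II molecules: H2-Aa, H2-Ab1, H2-Eb1, Cd74, Ciita, H2-DMa, H2-DMb1 and Ctss. They were taken by symbol from the 32285 genes listed for each library, and all 8 were found. They were measured by droplet-based 3′ single-cell RNA sequencing, which counts unique molecular identifiers (UMIs, one per captured RNA molecule), in cells of healing tibial fractures of 20-month-old male C57BL/6J mice, collected at day 7. The adenosine libraries came from mice that received a microgel with adenosine (called adenosine 1 and adenosine 2), and the control libraries from mice that received the empty microgel (control 1 and control 2). All 4 libraries therefore share the strain, the sex, the age, the fracture and a microgel; no transgene or deletion is named, and fractures without a microgel or in young mice were not analysed here. The tissue field of the labels reads bone marrow while the titles read fracture callus, and cells gated by mesenchymal or fibroblast markers made up 0.280% and 0.037% of the adenosine libraries, against 0.276% and 0.127% of the control libraries. No label ties the 2 libraries of a group to 1 mouse or to several, and the p-values below therefore cover only the spread between these libraries, which may be technical.

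Class II molecules are pairs of an α and a β chain that show peptides from the endosomes of a cell to CD4+ T cells, and in mice they are made chiefly by dendritic cells, B cells and activated macrophages and monocytes. H2-Aa and H2-Ab1 encode the α and β chains of I-A, and H2-Eb1 encodes the β chain of I-E, whose α chain is not made in the C57BL/6 background. Cd74 encodes the invariant chain that fills the groove of new class II molecules and guides them to endosomes, and Ctss encodes cathepsin S, the protease that removes most of the invariant chain there. H2-DMa and H2-DMb1 encode the H2-DM dimer, which exchanges the remaining invariant chain fragment for peptide. Ciita encodes the class II transactivator, a coactivator that binds no DNA itself and is recruited by the RFX, CREB and NF-Y factors that sit on the X and Y boxes of these genes' promoters.

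Of the 8 genes, 5 lie together in the class II region of chromosome 17 (build mm10): H2-DMa at chr17:34119541-34139101 (+), H2-DMb1 at chr17:34153072-34160230 (+), H2-Ab1 at chr17:34257689-34269419 (+), H2-Aa at chr17:34282744-34287823 (−) and H2-Eb1 at chr17:34305867-34316674 (+). Ciita lies at chr16:10480059-10528418 (+) and Ctss at chr3:95526786-95556403 (+). RefSeq promoter sequences (GRCm38.p6, the same build) had entries for 5 of the 8 genes. The 150 bases before the RefSeq start are shown for 4 of them, chosen because they set a chain gene of each I-A and I-E locus and a peptide-editor gene beside the protease gene; each is written 5′ to 3′ on the strand of its gene, with matches to 2 motifs in capitals. The first motif is ATTGG, the core of the Y box to which NF-Y binds, which reads CCAAT on the other strand. The second is GATGATG, a run that was spelled out after the promoters of H2-Eb1 and H2-DMb1 had been read, so its presence in these 2 only describes how it was found.
H2-Aa, chr17:34287824-34287973 (−): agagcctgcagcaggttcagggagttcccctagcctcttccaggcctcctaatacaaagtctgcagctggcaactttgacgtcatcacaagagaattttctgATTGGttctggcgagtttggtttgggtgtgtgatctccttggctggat
H2-Eb1, chr17:34305717-34305866 (+): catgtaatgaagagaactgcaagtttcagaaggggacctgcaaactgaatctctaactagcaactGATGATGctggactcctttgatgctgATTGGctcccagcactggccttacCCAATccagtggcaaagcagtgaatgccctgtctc
H2-DMb1, chr17:34153041-34153190 (+): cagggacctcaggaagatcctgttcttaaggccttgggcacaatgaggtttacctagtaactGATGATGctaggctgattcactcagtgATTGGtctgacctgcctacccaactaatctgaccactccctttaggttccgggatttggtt
Ctss, chr3:95526636-95526785 (+): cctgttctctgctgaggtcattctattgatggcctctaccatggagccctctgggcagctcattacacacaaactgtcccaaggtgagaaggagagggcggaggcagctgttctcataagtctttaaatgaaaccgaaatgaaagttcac

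The first ATTGG began 48 bases before the start in H2-Aa, 59 in H2-Eb1 and 61 in H2-DMb1, and H2-Eb1 held another, on the other strand, 35 bases before its start. GATGATG lay 85 bases before the start in H2-Eb1 and 88 bases before it in H2-DMb1. Neither was found in the 250 bases before Ctss or in the first entry of H2-DMa, whose other entry held ATTGG 198 bases before its start. Of 32851 RefSeq promoters searched on both strands over 250 bases, 33.8% held ATTGG, 2.92% held GATGATG and 1.03% held both. Of 3 other genes of the class II region, H2-DMb2 held both, and H2-Oa and H2-Ob held ATTGG, 43 and 57 bases before their starts, without GATGATG. A loose spelling of the X1 box, to which RFX binds, matched 9.51% of all promoters and, among the first entries of the members, that of H2-DMb1, 98 bases before its start, where it overlaps GATGATG. The loose spelling also matched H2-Ob, 91 bases before its start, and, on the other strand, the other entry of H2-DMa. A match describes letters in a window and is not a measured binding site.

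The 4 libraries held 35274 barcodes, of which 31331 were kept after removal of low-quality barcodes and doublets. Cells were assigned by marker genes, none of them a member, and each class is named for its marker list, so that "macrophage" stands for a macrophage-like cell; 93.6% of the 29187 gated cells, most of them neutrophils, fell in an unsupervised cluster of the same name. Of the classes compared below, the share was 99.8% in T cells, 96.6% in mature B cells, 93.3% in conventional dendritic cells, 87.5% in classical monocytes and 83% in macrophages, and lower in plasmacytoid dendritic cells (68.5%) and nonclassical monocytes (48.1%). Kept UMIs came to 52148127 and 58093368 in the adenosine libraries, against 50084531 and 29317852 in the control libraries, and library pairs shared 13 to 28 barcodes, at most 0.305% of the smaller library. Adenosine 2 and control 2 stood apart: T cells were 13.1% of adenosine 2 and 0.605% to 2.34% of the others, and macrophages were 9.07% of control 2 and 0.897% to 1.46% of the others. Conventional dendritic cells numbered 96 and 63 in the adenosine libraries, against 110 and 102 in the control libraries, and 130 of these 371 cells lay near the limit of their gate.

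Across the classes, the I-A α chain gene H2-Aa was highest in conventional dendritic cells, macrophages and mature B cells and lowest, by mean, in T cells. Levels are given as CPM, the UMIs of a gene per 1000000 UMIs of its class in a library, replicate 1 of a group before replicate 2; a 3′ UMI count is not divided by gene length, so levels are compared between classes and libraries and not between genes. In conventional dendritic cells H2-Aa stood at 6621 and 5907 CPM with adenosine and 6014 and 9126 CPM with the empty control. In macrophages it stood at 3603 and 8120.1 CPM with adenosine and 4541 and 2991 CPM with the empty control. In mature B cells it stood at 2734 and 3636 CPM with adenosine and 2979.6 and 3670.1 CPM with the empty control. The mean over the 4 libraries was 6917 ± 1506 CPM in conventional dendritic cells, 4814 ± 2295 CPM in macrophages and 3255 ± 471 CPM in mature B cells (SD, n = 4 each), and each of these neighbours overlapped the next in range. All 4 mature B cell values lay above all 4 values of the next class, plasmacytoid dendritic cells, at 1117 ± 699 CPM.

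Below that gap, plasmacytoid dendritic cells, classical monocytes (885 ± 552 CPM of H2-Aa) and nonclassical monocytes (795 ± 607 CPM) overlapped. Classical monocytes had 195 and 1197 CPM in the adenosine libraries, against 707 and 1440.3 CPM in the control libraries, so that the lowest library, adenosine 1, was 7.40-fold below the highest, control 2. Neutrophils, the most frequent class, had 16.6 and 28.8 CPM in the adenosine libraries, against 36.1 and 99.8 CPM in the control libraries. T cells, which in mice do not make class II molecules, were taken as a reference. They had 11.2 and 22.8 CPM in the adenosine libraries, against 12.3 and 4.11 CPM in the control libraries. This range overlapped that of neutrophils. The level of free RNA itself was not measured, and T cells were not the lowest class for every member. For H2-DMa and Ctss all 4 T cell values lay above all neutrophil values. H2-Ab1 and H2-Eb1 followed the same order from conventional dendritic cells through macrophages to mature B cells: in conventional dendritic cells H2-Ab1 had 4238 and 3907 CPM with adenosine and 4194 and 5831 CPM with the empty control. H2-Eb1 had 4161 and 3814 CPM with adenosine and 4093 and 7072 CPM with the empty control in the same cells. In T cells these 2 β chain genes ranged from 5.09 to 28.8 CPM over the 4 libraries.

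Cd74, the invariant chain gene, which lies on chromosome 18 (60803848 to 60812652, + strand), had 11255 and 11757 CPM with adenosine and 12013 and 18516 CPM with the empty control in conventional dendritic cells. In mature B cells it had 6195 and 10365 CPM with adenosine and 7798 and 12116 CPM with the empty control, and in macrophages 5735 and 15431 CPM with adenosine and 8069 and 6765 CPM with the empty control. These 3 classes overlapped, and all of their values lay above those of plasmacytoid dendritic cells (2756 ± 1967 CPM, SD, n = 4). In plasma cells, of which adenosine 1 alone held enough to measure (86 cells), Cd74 stood at 1871 CPM beside 47.2 CPM of H2-Aa and 7.39 CPM of Ciita, with no second library to compare.

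Ciita, the transactivator gene, was highest in conventional dendritic cells, with 523 and 489 CPM with adenosine and 344 and 442 CPM with the empty control. Mature B cells, the next class by mean, had 236 and 247 CPM with adenosine and 219 and 157 CPM with the empty control, all below the conventional dendritic cell values. Macrophages had 148 and 357 CPM with adenosine and 199 and 58.1 CPM with the empty control, the widest spread of the 3 classes, and their adenosine 2 value lay above the lowest conventional dendritic cell value. Neutrophils stayed between 0.517 and 1.31 CPM in all 4 libraries, and T cells had 1.02 and 1.32 CPM with adenosine and 0 UMIs in both control libraries.

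The peptide editor genes act on class II molecules in the endosome. H2-DMa had 459 and 582 CPM with adenosine and 468 and 481 CPM with the empty control in conventional dendritic cells and 245 and 672 CPM with adenosine and 278 and 181 CPM with the empty control in macrophages. Plasmacytoid dendritic cells, at 311 CPM on average, mature B cells, at 306 CPM, and classical monocytes, at 219 CPM, overlapped with macrophages. H2-DMa also stood at 20.4 and 29.2 CPM with adenosine and 19.0 and 20.6 CPM with the empty control in T cells. H2-DMb1 had 464 and 675 CPM with adenosine and 489 and 677 CPM with the empty control in conventional dendritic cells and 144 and 122 CPM with adenosine and 124 and 86.6 CPM with the empty control in mature B cells, which placed mature B cells below plasmacytoid dendritic cells and classical monocytes in mean level. Macrophages, at 256 to 667 CPM of H2-DMb1, overlapped plasmacytoid dendritic cells but lay above all classical monocyte and mature B cell values. H2-DMb1 has a close and similar neighbour, H2-DMb2, so that how the submitters' counting split reads between the pair is uncertain.

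Ctss, the protease gene, followed another order and was highest in macrophages, with 2211 and 2713 CPM with adenosine and 2143 and 2084 CPM with the empty control. All 4 of these values lay above all values of the next class, classical monocytes, which had 824 and 1234 CPM with adenosine and 1155 and 1929.6 CPM with the empty control. Conventional dendritic cells had 872 and 651 CPM with adenosine and 716 and 1557 CPM with the empty control, a range that overlapped that of classical monocytes. Mature B cells had 435 ± 65.4 CPM (SD, n = 4), apart from and above T cells at 96.2 CPM.

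**Figure D1:**
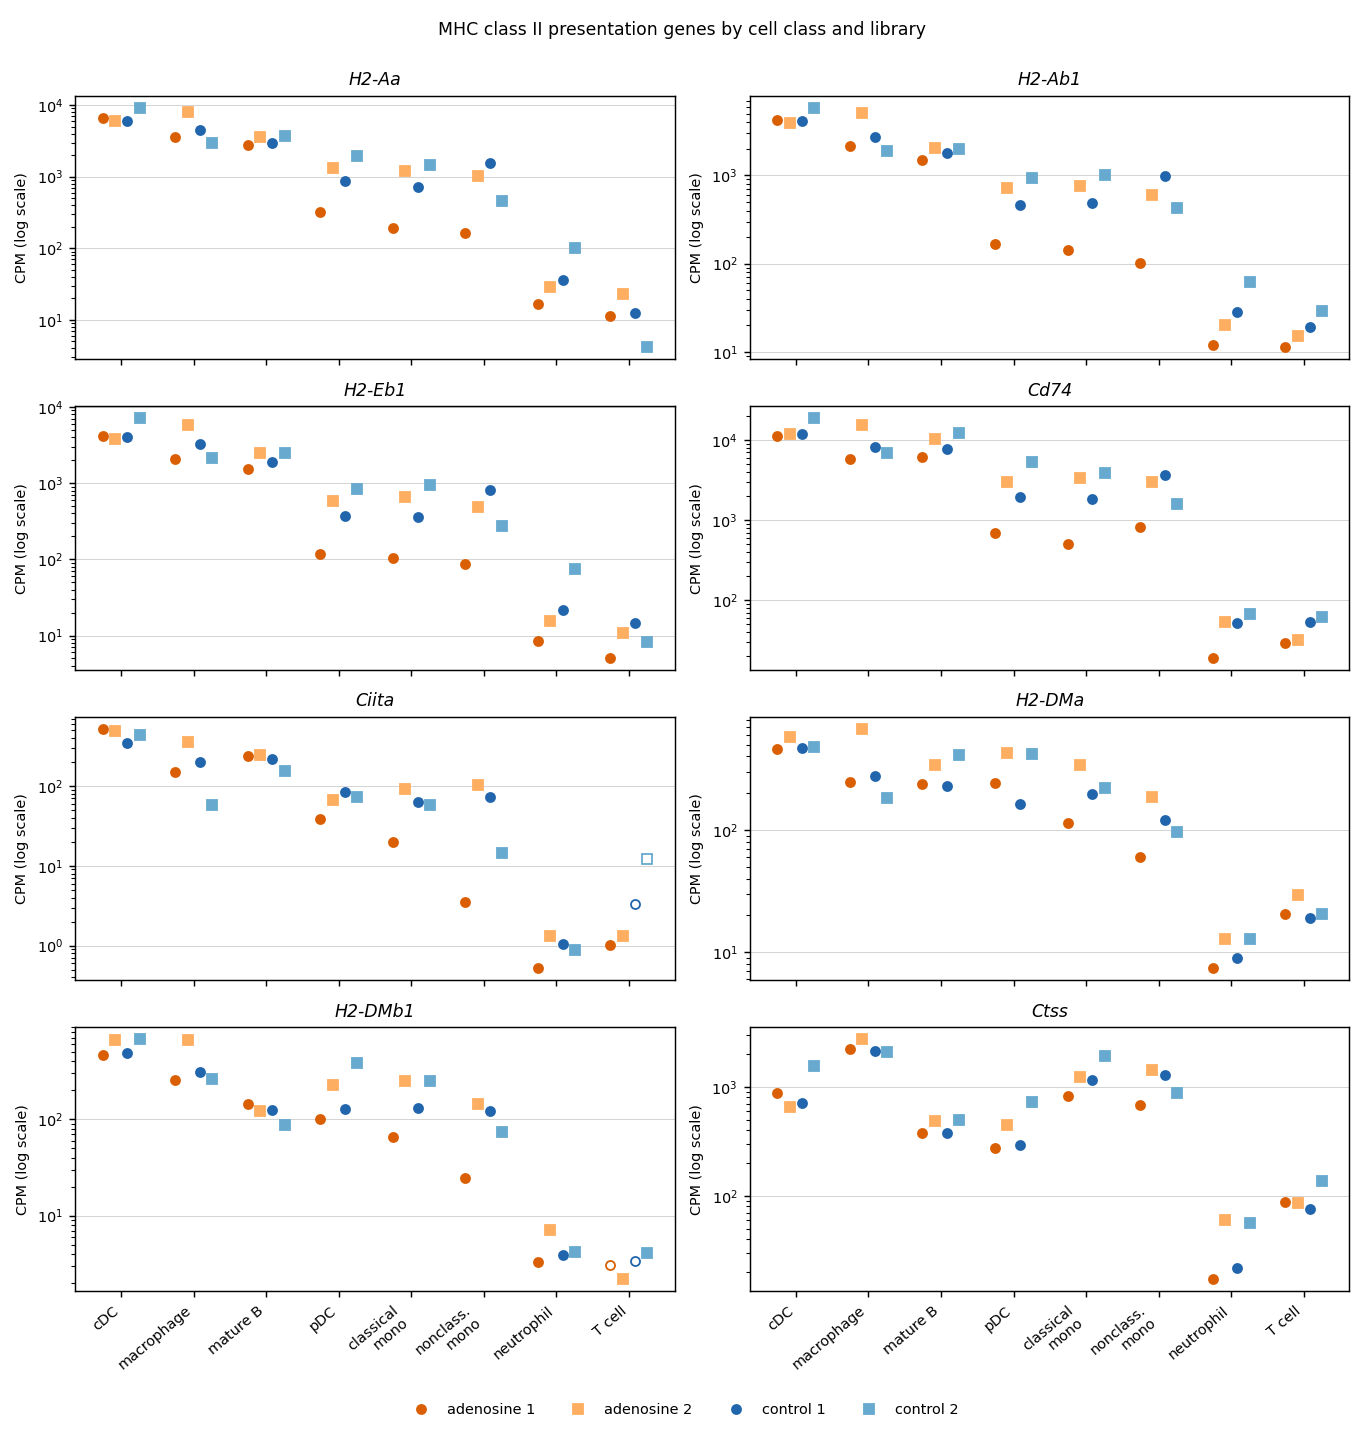
UMIs per 1000000 UMIs (CPM, log axis) of each of the 8 genes in 8 cell classes, 1 panel per gene; orange symbols are adenosine libraries 1 and 2, blue symbols control libraries 1 and 2, and an open symbol marks 0 UMIs, drawn at the CPM that 3 UMIs would give. Ciita is highest in conventional dendritic cells (344.3 to 522.7 CPM), where 1 macrophage value (357.3 CPM) reaches into that range, and Ctss is highest in macrophages (2084 to 2713 CPM), clear of every other class shown.

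Classes were compared within libraries by edgeR's quasi-likelihood test on summed UMIs with the library as a block, two-sided, with Benjamini-Hochberg adjustment over all genes tested and a threshold of 0.05. Conventional dendritic cells were set against macrophages to ask which steps of presentation differ between the highest classes. Ciita was higher in conventional dendritic cells by 1.41 on the log2 scale (SE 0.38, edgeR adjusted p = 0.0218), and H2-DMb1 by 0.66 (SE 0.21, adjusted p = 0.048). Ctss was lower in conventional dendritic cells, with a log2 fold change of −1.43 (SE 0.25, adjusted p = 0.00282). So 2 members rose and 1 fell, where 14% of the 8642 genes tested were called higher and 16.6% lower. The chain and invariant chain genes did not pass: H2-Aa had a log2 fold change of 0.54 (SE 0.29, adjusted p = 0.212) and Cd74 one of 0.58 (adjusted p = 0.141). The members' median was 0.60 against −0.01 over all genes. The macrophage values of adenosine 2 were the highest of the 4 libraries for all 8 members, and without that library 7 members passed as higher and Ctss as lower; without adenosine 1 none passed as higher and Ctss as lower.

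Other genes of the pathway also differed between conventional dendritic cells and macrophages. All 3 other class II locus genes rose in conventional dendritic cells: H2-Oa by 5.43 and H2-Ob by 5.22 on the log2 scale, which encode the H2-DM inhibitor H2-O, and H2-DMb2, another H2-DM β chain gene, by 4.00. Of 14 transcription genes tested, 2 rose, Irf8 by 1.77 and Irf4 by 2.25, and Prdm1, a repressor of Ciita in plasma cells and a marker of the plasma cell gate, fell by 1.74. Of 8 endosomal genes, 5 fell, among them the asparaginyl endopeptidase gene Lgmn (log2 fold change −3.46) and the cathepsin genes Ctsl (−5.57) and Ctsd (−4.13), and the cystatin C gene Cst3 rose by 2.03. Of 6 surface genes, Cd83 rose by 2.47 and the class II ubiquitin ligase gene March1 by 0.82, and 1 fell, March8, which had 0 UMIs in conventional dendritic cells, so no fold is given.

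Mature B cells had less RNA of all 8 members than conventional dendritic cells. The log2 fold changes were −1.10 for H2-Aa (SE 0.16, edgeR adjusted p = 3.74e-05), −1.33 for H2-Ab1 and −1.20 for H2-Eb1. The smallest was that of Cd74, at −0.60 (SE 0.16, adjusted p = 0.00536), which lost its call without adenosine 1 (adjusted p = 0.0841). The largest was that of H2-DMb1, at −2.24 (SE 0.19, adjusted p = 1.72e-07). Against these 8 of 8, 27.2% of 8972 genes were called lower and 25.4% higher, and the members' median was −1.08 against 0.02 over all genes. The other locus genes went the other way: all 3 rose in mature B cells, H2-Ob by 2.41, H2-DMb2 by 2.05 and H2-Oa by 0.61. H2-Ob had 299.9 and 360.2 CPM with adenosine and 343 and 373 CPM with the empty control in mature B cells, 71.1 and 47.2 CPM with adenosine and 52.1 and 88.1 CPM with the empty control in conventional dendritic cells and 0 to 2.42 CPM in macrophages. Of 13 transcription genes 2 rose, Irf4 by 1.19 among them, and 5 fell, among them Spi1, the gene of the factor PU.1, by 2.22 and Irf8 by 1.42. Of 8 endosomal genes none rose and 5 fell, the thiol reductase gene Ifi30 by 1.93 among them, and of 5 surface genes 2 rose and 3 fell.

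Within the B lineage, all 8 members were higher in mature B cells than in B cell precursors, in the 3 libraries with enough precursors (both adenosine libraries and control 1). H2-Aa had 2734 and 3636 CPM with adenosine and 2980 CPM in control 1 in mature B cells, against 109.6 and 247.8 CPM with adenosine and 25.9 CPM in control 1 in precursors. The log2 fold changes were 5.13 for H2-Aa (SE 0.42) and 5.68 for H2-Eb1 (SE 0.39), and the smallest was 2.70 for Ctss (SE 0.24); all passed edgeR's adjusted threshold. Of 9273 genes, 18.4% were called higher and 21% lower. The 3 other locus genes and all 5 surface genes tested rose as well, led by Cd83 (8.53 on the log2 scale), H2-DMb2 (7.97) and March1 (5.77). Of 14 transcription genes 3 rose and 3 fell, and of 7 endosomal genes 4 rose and 2 fell.

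Plasmacytoid dendritic cells, which are known mainly for interferon production, had less of all 8 members than conventional dendritic cells. The 3 chain genes fell by 2.99 (H2-Aa, SE 0.31), 3.33 (H2-Ab1) and 3.67 (H2-Eb1, SE 0.33) on the log2 scale, and Ciita fell by 2.94. H2-DMa fell the least, by 0.91 (SE 0.20, edgeR adjusted p = 0.0053). Of 8552 genes, 15.9% were called lower and 13.1% higher; with library size alone as the scaling the split was 1530 higher and 1137 lower in place of 1123 and 1364. All 3 other locus genes and 5 of 5 surface genes fell, among them Cd86 by 5.18 and Cd40 by 3.52. Of 12 transcription genes tested 1 rose, Irf8 by 1.64, and 5 fell, among them Spi1 by 1.71 and the interferon-γ receptor gene Ifngr1 by 2.75. Of 8 endosomal genes 3 rose, led by Ctsl (5.00), and 3 fell, led by Cst3 (−2.93), and both class II receptor genes rose, Cd4 (also a T cell marker here) by 4.25 and Lag3 by 3.29.

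Macrophages had more of 7 members than classical monocytes, where 13.2% of 11005 genes were called higher and 12.6% lower. H2-Eb1 rose by 3.01 (SE 0.48), H2-Aa by 2.72 (SE 0.47, edgeR adjusted p = 0.00677), Cd74 by 2.21 and Ciita by 1.67 (SE 0.42, adjusted p = 0.0258). Ctss rose by 0.93 (SE 0.21, adjusted p = 0.0179), and H2-DMa did not pass, at 0.60 (SE 0.23, adjusted p = 0.0976). Without adenosine 1, adenosine 2 or control 1 in turn, the 3 chain genes and Cd74 passed and the other 4 members did not. Of 8 endosomal genes 5 rose and none fell, led by Lgmn (3.11) and Ctsl (2.44). Of 6 surface genes 4 rose, led by Cd83 (3.21), and March1 fell by 0.53. Of 15 transcription genes 1 rose, Prdm1 by 1.67, and 1 fell.

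All 8 members were higher in classical monocytes than in neutrophils, by 3.35 (H2-Eb1) to 5.05 (Ciita, SE 0.20) on the log2 scale, in a comparison in which 34.9% of 12284 genes were called higher and 34.1% lower. With library size alone as the scaling, the median of all genes moved by 0.82 and the split became 7107 higher and 2079 lower, against 4289 and 4190. Nonclassical monocytes passed the test against classical ones for the 2 peptide editor genes and for no other member: H2-DMa fell by 0.88 (SE 0.16, edgeR adjusted p = 0.00155) and H2-DMb1 by 0.85 (SE 0.24, adjusted p = 0.0212), where 12% of 10191 genes were called lower and 11.6% higher. H2-Aa had a log2 fold change of −0.19 (SE 0.32, adjusted p = 0.724) there, and its sign turned under a stricter gate. By unsupervised clusters 6 members were called lower, without control 1 4 were, and without either adenosine library H2-DMa alone was.

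T cells were compared with neutrophils as a check of the background. In all, 5 of 8 members were lower in T cells, H2-Aa by 2.25 (SE 0.55, edgeR adjusted p = 0.00788) and H2-DMb1 by 2.94 among them, where 32.2% of 12301 genes were called lower and 28.2% higher. This comparison turned with the processing. With doublets kept no member was called, and with library size alone as the scaling, which moved the median of all genes by 1.04, H2-DMa (1.15) and Ctss (1.48) were called higher and H2-DMb1 (−1.98) lower.

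**Figure D2:**
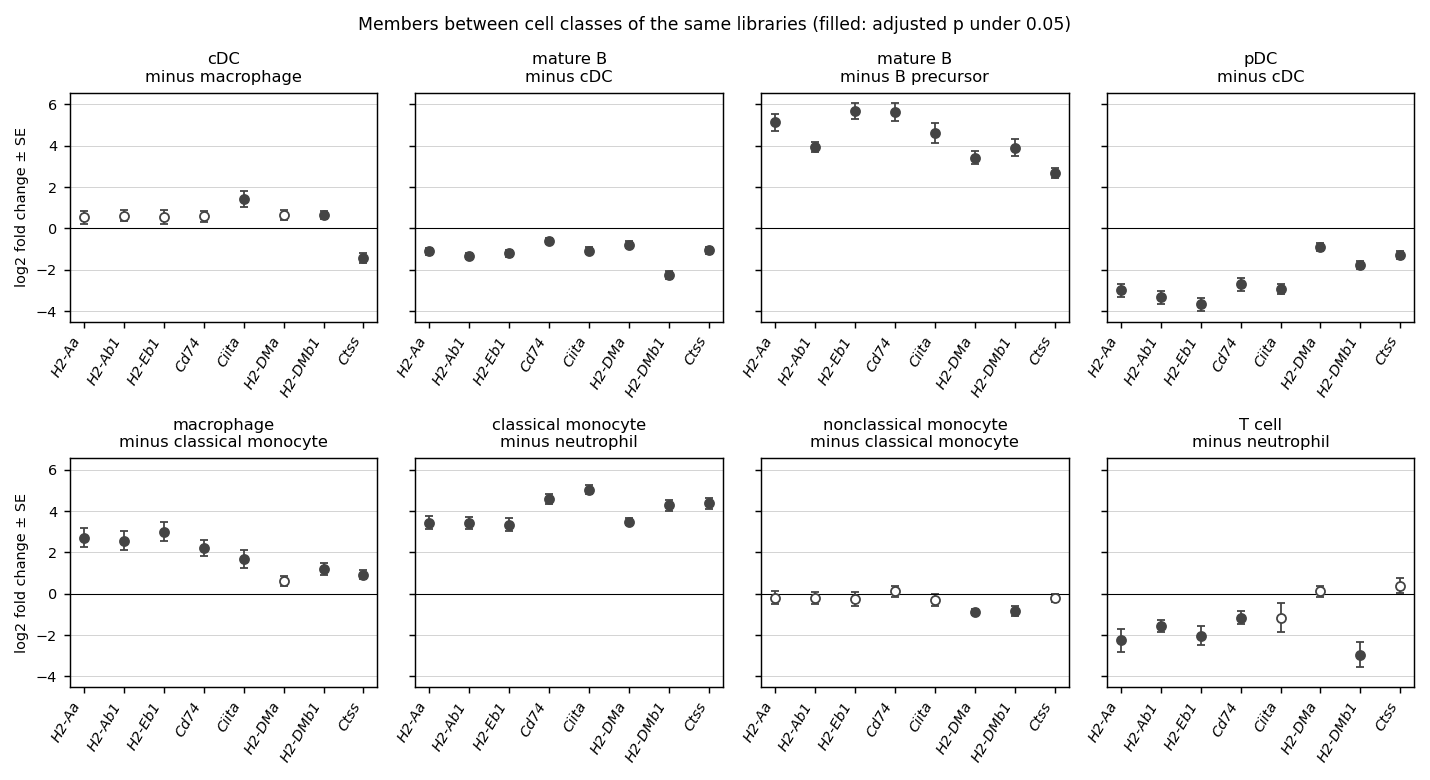
Log2 fold change with its standard error for each of the 8 genes in 8 comparisons of classes within libraries; filled symbols passed an edgeR adjusted p of 0.05. All 8 genes lie below 0 in mature B cells and in plasmacytoid dendritic cells against conventional dendritic cells, and Ctss alone was called lower in conventional dendritic cells against macrophages.

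The class that held most of the class II RNA differed from library to library. Of the UMIs of H2-Aa, H2-Ab1, H2-Eb1 and Cd74 together, the 4 genes called the core below, conventional dendritic cells held 32.5% and 11.8% in the adenosine libraries, against 25.5% and 21.6% in the control libraries. Classical monocytes held 9.67% and 38.9% with adenosine, against 30.7% and 18.7% with the empty control. Macrophages held 17.9% and 13.9%, against 11.1% and 32.8%. By the gate, the leading class was thus conventional dendritic cells in adenosine 1, classical monocytes in adenosine 2 and in control 1, and macrophages in control 2. By unsupervised clusters conventional dendritic cells held 45.0% and 15.0% with adenosine, against 39.3% and 40.5% with the empty control, and led in control 1. By these clusters classical monocytes held 8.29% and 51.7% with adenosine, against 33.4% and 3.51% with the empty control. Macrophages held 23.4% and 4.26%, against 10.9% and 49.8%. The gate counts both classes as 1 lineage and asks for no margin between them. Values of control 2 monocytes and macrophages thus depend on how these classes were split. Cells between gates, assigned to no class, held another 13.0% and 5.29%, against 12.5% and 17.5%. Mature B cells held 16.9% and 23.5% with adenosine and 12% and 3.00% with the empty control, and neutrophils, 47.5% to 71.1% of the cells, held 0.827% to 2.05%. Of the Ctss UMIs, classical monocytes held 51.8% and 65.1% with adenosine and 69.5% and 39.5% with the empty control.

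**Figure D3:**
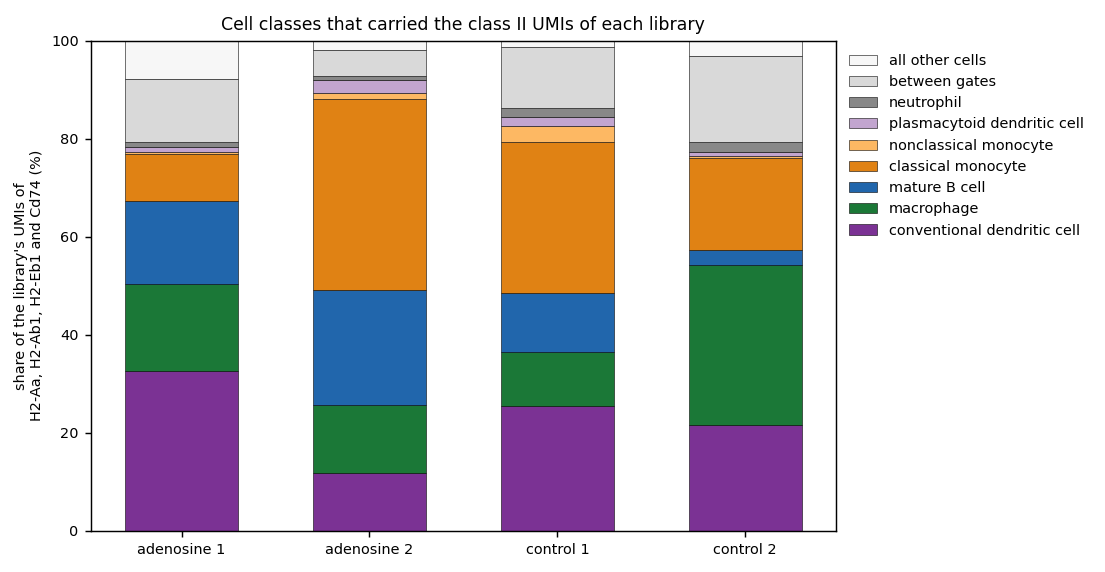
Percent of the UMIs of H2-Aa, H2-Ab1, H2-Eb1 and Cd74 held by each cell class, 1 stacked bar per library, adenosine libraries left of control libraries. Conventional dendritic cells hold 32.5% in adenosine 1, classical monocytes 38.9% in adenosine 2 and macrophages 32.8% in control 2; classes are those of the marker gate.

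Cell by cell, core UMIs were spread over nearly every cell of some classes and over a fraction of others. Each cell was thinned to 2000 UMIs, and cells with fewer were left out (1539 and 1129 in the adenosine libraries, 1497 and 708 in the control libraries). In mature B cells 98.2% and 98.0% of cells with adenosine, against 97.7% and 100% with the empty control, had at least 3 core UMIs. In conventional dendritic cells the shares were 94.7% and 95.2%, against 88.1% and 96.0%. In classical monocytes they were 9.47% (75 of 792 cells, 95% Wilson interval 7.62% to 11.7%) and 50.9% (526 of 1033) with adenosine, against 28.3% (341 of 1206) and 46.7% (243 of 520) with the empty control. The classical monocyte intervals cover counting error only, and the libraries of 1 group differed from each other by more than the groups did. The control 2 share also depends on how the gate split monocytes from macrophages. T cells had 0% and 0.286% with adenosine and 0% in both control libraries; 0 counts allow shares of up to 1.66% in adenosine 1, 2.24% in control 1 and 8.33% in control 2.

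The median classical monocyte had 0 and 3 core UMIs with adenosine, against 0 and 2 with the empty control, while the 90th percentile stood at 2 and 45, against 27.5 and 55.1. The median conventional dendritic cell had 49 and 52.5 core UMIs with adenosine, against 56 and 88 with the empty control. The median macrophage had 20 and 74, against 28 and 9, so that control 2, with the most macrophages, had the lowest median. At least 3 core UMIs were found in 79.1% and 97.2% of macrophages with adenosine, against 85.9% and 62.9% with the empty control.

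For H2-Aa alone, the thinned share of classical monocytes with a UMI was 8.96% and 42.0% with adenosine, against 24.1% and 38.3% with the empty control. The thinned T cell shares, taken as a reference, were 2.76% and 4.67%, against 2.99% and 0%. Without thinning the classical monocyte shares were 18.3% and 65.2% with adenosine, against 39.9% and 57.1% with the empty control, at median depths of 10831 and 11095 UMIs, against 9517 and 9520 UMIs per cell. The unthinned T cell shares were 5.73% and 20.5%, against 8.03% and 2.63%, at median depths of 4152 and 9060 UMIs, against 5888 and 5929 UMIs. Neutrophils had thinned shares of 3.31% and 5.51% with adenosine, against 6.19% and 13.5% with the empty control. These lay above the T cells of the same library each time and furthest above them in control 2. As counted, without thinning, neutrophils had 0.171 and 0.420 core UMIs per cell with adenosine, against 0.457 and 0.931 with the empty control. T cells, the deeper class, had 0.292 and 0.853, against 0.650 and 0.658, so neutrophils lay above them in control 2 alone. Neutrophil median depths were 2657 and 2779 UMIs, against 2766 and 2699 UMIs. Neutrophils were tested only against T cells, as described above, and that result turned with the processing. No test was made against free RNA itself.

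In conventional dendritic cells, macrophages, classical monocytes and mature B cells, cells with a Ciita UMI carried more core UMIs on average than cells of the same class and library without one, except among mature B cells of control 2. Among classical monocytes thinned to 2000 UMIs, the mean was 16.8 core UMIs in Ciita-positive cells, against 1.62 in Ciita-negative cells, in adenosine 1, and 37.0, against 9.65, in adenosine 2. In the control libraries the means were 31.9, against 4.70, in control 1 and 40.9, against 12.1, in control 2. These rest on 26 and 149 Ciita-positive monocytes with adenosine and on 139 and 59 with the empty control. In mature B cells the means lay closer, at 25.4, against 23.5, and 40.4, against 37.7, with adenosine, and 30.8, against 28.0, and 41.6, against 44.2, with the empty control. These are descriptions of cells within libraries, and no test was made over cells.

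**Figure D4:**
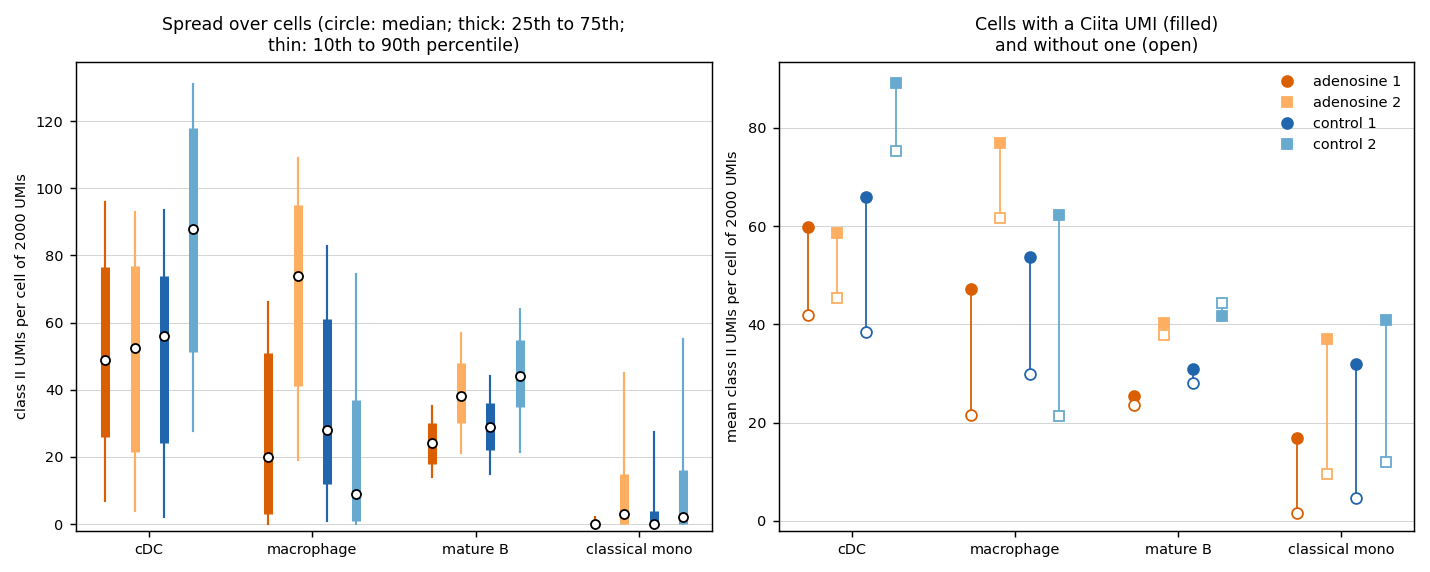
Left, core UMIs (H2-Aa, H2-Ab1, H2-Eb1 and Cd74) per cell after thinning to 2000 UMIs, with circles at the median, thick lines from the 25th to the 75th percentile and thin lines from the 10th to the 90th, by class and library. Right, mean core UMIs of cells with (filled) and without (open) a Ciita UMI: among classical monocytes the filled symbols lie at 16.8 to 40.9 and the open ones at 1.62 to 12.1.

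The mix of the 4 core genes varied with the class. Cd74 made up 51.8% and 56.0% of the core UMIs of mature B cells with adenosine, against 53.9% and 59.8% with the empty control, while in conventional dendritic cells it made up 42.8% to 46.3% over the 4 libraries. The 2 ranges did not overlap. In neutrophils the share of Cd74 was 34.0% and 45.6% with adenosine, against 38.1% and 22.4% with the empty control, and in the plasma cells of adenosine 1 it was 91.3%.

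Conventional dendritic cells themselves were not uniform. They were divided, after their values had been seen, into cells led by Xcr1 and Clec9a (131 cells, markers of the cross-presenting cDC1 subset), by Cd209a and Clec10a (131 cells, markers of cDC2) and by Ccr7 and Fscn1 (82 cells, markers of mature, migrating dendritic cells), so no test was made. Ciita stood at 62.2 and 80.8 CPM with adenosine and 20.5 and 195.8 CPM with the empty control in the Ccr7 and Fscn1 cells, all below the 344 to 671 CPM of the other gates. H2-DMa, at 113.1 and 105.1 CPM with adenosine and 40.9 and 143.8 CPM with the empty control in these cells, lay below the 449.6 to 855.9 CPM of the other gates. H2-DMb1 was at 39.6 and 72.7 CPM, against 35.8 and 146.9 CPM, in the Ccr7 and Fscn1 cells and at 498 to 1147 CPM in the other gates. Another 27 cells fell in none of these gates and are left out of these ranges. In them H2-DMb1 ran from 125.2 to 826.9 CPM, which reached into the range of the Ccr7 and Fscn1 cells. Their H2-DMa ran from 308.5 to 755.0 CPM and their Ciita from 417.4 to 838.8 CPM. H2-Aa overlapped between the gates: it had 3601 and 4235 CPM with adenosine and 3155 and 8583 CPM with the empty control in the Ccr7 and Fscn1 cells, and 5138 to 9873 CPM in the other gates. The Ccr7 and Fscn1 cells numbered 20 and 10 in the adenosine libraries, against 21 and 31 in the control libraries, so single values rest on few cells.

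**Figure D5:**
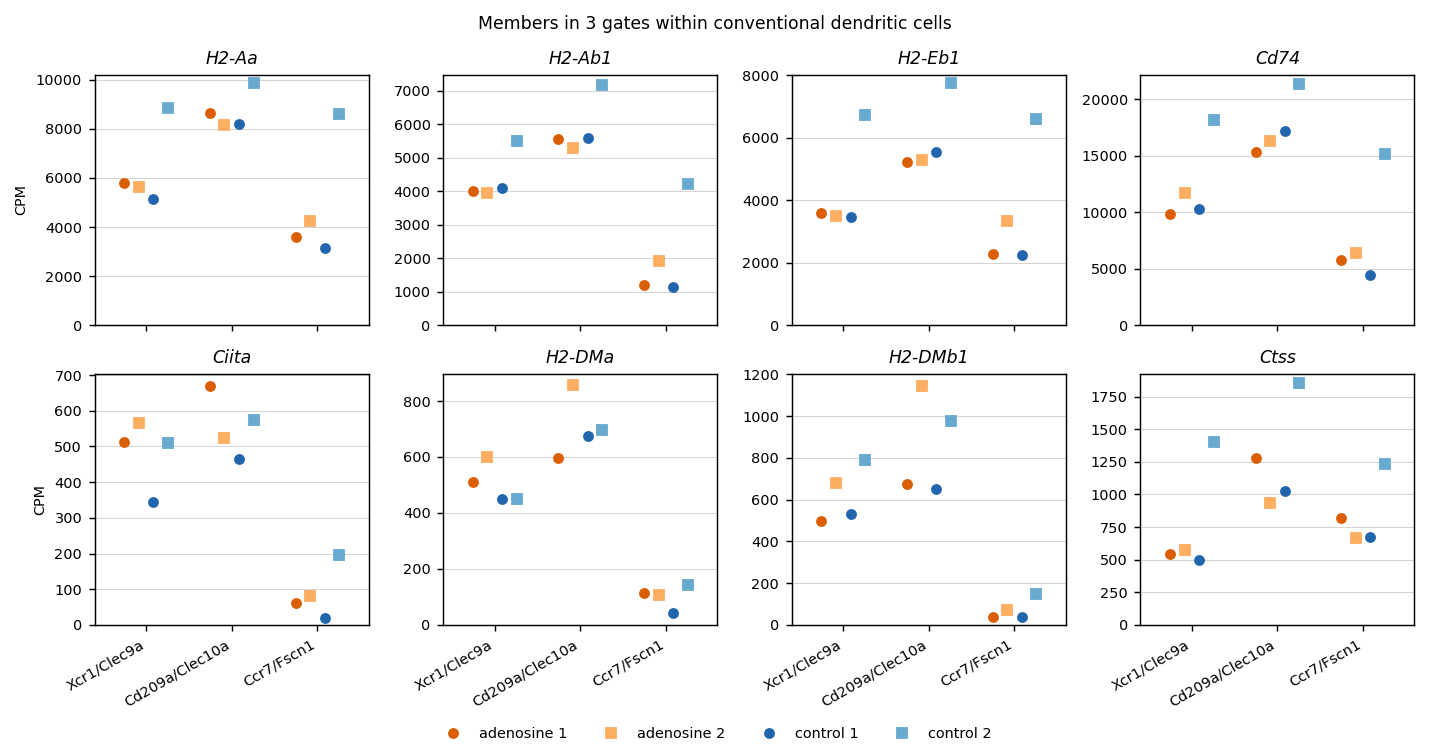
CPM (linear axis) of the 8 genes in 3 groups of conventional dendritic cells led by different markers, by library, adenosine left of control in each group. In the Ccr7 and Fscn1 cells Ciita lies at 20.5 to 195.8 CPM, below the 344.0 to 670.7 CPM of the other groups.

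Over 45 sums of a class in a library (15 classes, at least 50 cells each) and 7105 genes, the genes whose log2 CPM ran most like that of the core were described by Pearson's r across sums, which share libraries and depth and carry no p. Ciita stood closest outside the core (r = 0.969), and H2-DMb1 (0.874), H2-DMa (0.864) and Ctss (0.845) were among the next. Of genes that are neither members nor gate markers, the 6 most alike were Cd40 (0.921), the receptor for T cell help, Tbc1d9 (0.887), Ifi30 (0.870), Lgmn (0.861), Plekho1 (0.847) and Cyp27a1 (0.843), a sterol hydroxylase gene. Cd40, Ifi30 and Lgmn were also on the pathway lists.

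The adenosine libraries were then compared with the control libraries to ask whether the adenosine microgel altered these genes at day 7. No member was called in any of the 7 comparisons (all cells, neutrophils, classical monocytes, nonclassical monocytes, macrophages, conventional dendritic cells and mature B cells) by edgeR's quasi-likelihood test with Benjamini-Hochberg adjustment over all genes. The background was 0% in every one of them: 0 of 5592 to 16397 genes were called. At an unadjusted p under 0.05 edgeR found 405, 250, 305, 108, 277, 141 and 61 genes in the order just given, and DESeq2 called 19, 43, 10, 0, 8, 0 and 0 genes, of which 0 were members. With 2 libraries against 2, an exact permutation test of a single value cannot go below p = 0.333.

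Over all cells, H2-Aa had 426 and 717 CPM in the adenosine libraries, against 620.3 and 1494 CPM in the control libraries. Its log2 fold change was −1.10 (SE 0.64, edgeR adjusted p = 0.885). Cd74 had 849.9 and 1777 CPM in the adenosine libraries, against 1385 and 3345 CPM in the control libraries, and control 2 was the highest library for both genes. In sums over all cells, fewer cells of a type and less RNA per cell cannot be told apart. Ctss was the only member whose groups did not overlap, with 295 and 420.5 CPM in the adenosine libraries, against 423 and 875 CPM in the control libraries (log2 fold change −1.07, SE 0.55, adjusted p = 0.885), where 9.76% of all genes lay below both control libraries and 26% above both.

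In neutrophils the 3 chain genes lay below both control libraries in both adenosine libraries. H2-Aa values were given above; H2-Eb1 had 8.53 and 15.6 CPM in the adenosine libraries, against 21.4 and 74.4 CPM in the control libraries, and H2-Ab1 had 12 and 19.9 CPM in the adenosine libraries, against 28.0 and 61.7 CPM in the control libraries. The log2 fold changes were −1.77 (SE 0.72) for H2-Aa, −1.67 (SE 0.64) for H2-Ab1 and −2.19 (SE 0.82) for H2-Eb1, each at an edgeR adjusted p of 0.874, and 10.4% of 11770 genes lay below both control libraries in this way and 15.8% above both. Without control 1 these 3 genes were called, H2-Aa at −2.40 with an adjusted p of 0.00419, in a fit that then called 1798 genes higher and 2236 lower; the lone control library is there assumed to vary like the adenosine pair. The 12 macrophage markers in neutrophils summed to 88.0 and 56.4 CPM with adenosine and 93.9 and 365.0 CPM with the empty control. Of the markers 12 and 11 were seen (Gpnmb at 0 UMIs in adenosine 2), against 12 and 12. Control 2 was highest for this sum and for the 3 chain genes. Of the 2 adenosine libraries, adenosine 1 was higher for this sum and adenosine 2 for the 3 chain genes. Cd68 alone gave 17.2 and 14.9 CPM, against 21.7 and 198.9 CPM, and the other macrophage markers together 70.8 and 41.5 CPM, against 72.3 and 166.0 CPM. The 14 conventional dendritic cell markers summed to 225.9 and 158.8 CPM, against 205.2 and 129.9 CPM, with Ccr7 and Ccl22 at 0 UMIs in adenosine 2 and Cadm1 at 0 UMIs in control 2. Of these sums Wdfy4 alone gave 196.9 and 140.2 CPM, against 178.8 and 106.8 CPM, and the other 13 markers together gave 29.0 and 18.5 CPM, against 26.4 and 23.2 CPM. Their part in the result was not tested.

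In classical monocytes no member separated the groups, where 16.2% of all genes lay above both control libraries and 9.5% below both, and adenosine 1 was the lowest library for all 8. H2-Aa had a log2 fold change of −0.70 (SE 0.92, edgeR adjusted p = 0.998), and without adenosine 1 the members' median, −0.67 over all 4 libraries, was 0.14 and without control 2 it was 0.07. Adenosine 2 had the highest RNA of Irf1, an interferon-induced transcription factor gene that acts on Ciita, in classical monocytes, macrophages and mature B cells. Ciita was highest in adenosine 2 in macrophages and in mature B cells, by the values given above, and ran from 19.7 to 91.8 CPM in classical monocytes. H2-Aa was highest in adenosine 2 in macrophages, and in control 2 in classical monocytes and mature B cells. Whether Irf1 had a part in these levels was not tested. In classical monocytes Irf1 had 43.9 and 256 CPM in the adenosine libraries, against 59.0 and 44.2 CPM in the control libraries. Ifng itself had 0.403 and 18.9 CPM over all cells with adenosine (21 and 1098 UMIs), against 0.559 and 0.102 CPM with the empty control (28 and 3 UMIs), and T cells held 1043 of the 1098 UMIs of adenosine 2. Macrophage markers in classical monocytes summed to 1294 and 898 CPM with adenosine, against 1541 and 4286 CPM with the empty control, with all 12 seen in every library. Apoe alone gave 704.2 and 362.5 CPM of these sums, against 977.6 and 2306.5 CPM. The other macrophage markers together gave 589.4 and 535.3 CPM, against 563.2 and 1979.5 CPM. The part of these in the members' levels was not tested.

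In macrophages the members' median was 0.65 against 0.01 over all genes, and no member passed. H2-DMa had a log2 fold change of 1.01 (SE 0.51) and Ciita one of 1.03 (SE 0.60), both at an edgeR adjusted p of 1. Ctss alone did not overlap, higher with adenosine, where 14.8% of 8433 genes lay above both control libraries and 11.1% below both. Without adenosine 2, the highest library for each member in macrophages, the members' median was −0.17. Nonclassical monocytes gave H2-Aa a log2 fold change of −0.82 (SE 0.84, adjusted p = 1) with all 8 members overlapping, where 16.7% of genes lay above both control libraries and 8.91% below both, and their median, −0.42 over all 4 libraries, was 0.18 without adenosine 1.

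In conventional dendritic cells H2-Aa had a log2 fold change of −0.39 (SE 0.37) and in mature B cells one of −0.11 (SE 0.45), both at an edgeR adjusted p of 1. Ciita was the member whose groups did not overlap in both classes, higher with adenosine, by the values given above; its log2 fold changes were 0.25 (SE 0.35) and 0.31 (SE 0.33). Above both control libraries lay 16.3% of genes in conventional dendritic cells and 11.5% in mature B cells, and below both 8.68% and 9.47%. Cd74 was lower in both adenosine libraries of conventional dendritic cells (log2 fold change −0.53, SE 0.38). The members' median was −0.41 in conventional dendritic cells and was 0.06 without control 2. In mature B cells it was −0.12, and it was 0.14 without adenosine 1 and 0.13 without control 2.

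Whether the change with adenosine differed between classes was tested by the interaction of class and treatment, with library as a block. For H2-Aa the difference was 0.58 (SE 0.47) on the log2 scale between macrophages and mature B cells, −0.24 (SE 0.38) between conventional dendritic cells and mature B cells and −0.43 (SE 0.59) between neutrophils and classical monocytes. No member was called in any of the 3 by edgeR; 1 of 10067 genes was called higher in the first (0.00993%), 1 of 10080 lower in the second (0.00992%) and 0 of 13295 in the third. The member with the smallest p in these 3 tests was H2-DMa in macrophages against mature B cells, with a difference of 0.93 (SE 0.42, edgeR adjusted p = 1).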

How the data were processed

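The submitters deposited 1 matrix of UMI counts per library, as whole-number counts per gene and barcode that are not normalized. Per the submitters' processing notes, bcl2fastq, Cell Ranger 7.0.0 and build mm10 were used; per the labels' protocols, viable cells were sorted after mincing, digestion and lysis of red cells. How strand and reads shared by similar genes were handled is not given in the sources used here.

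Barcodes with fewer than 200 genes or at least 10% mitochondrial UMIs (1576) were removed, then the barcodes with the highest Scrublet scores up to 0.8% per 1000 barcodes as doublets (2367). Kept cells had a median of 3477 and 4745.5 UMIs in the adenosine libraries and 3766 and 2992 UMIs in the control libraries. A cell was assigned to 1 of 20 marker lists if at least 3 of the list's markers were detected and its mean clipped score led every other lineage by 0.5; 1945 cells lay between gates and 185 in none. Leiden clusters (scanpy 1.11.5, leidenalg 0.10.2; 1979 variable genes without the members and pathway genes) served as the alternative classes. The members and all lists were chosen with earlier results of these data known.

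UMIs were summed per library and class and tested with edgeR 4.0.16 in R 4.3.3 (quasi-likelihood, filterByExpr, TMM, two-sided, Benjamini-Hochberg over all genes tested), the treatment in classes with at least 50 cells in every library, class contrasts where both classes had at least 20 cells, with the library as a block. All 8 members passed the filter on low counts in every fit. Each standard error (SE) was derived from the edgeR test, as the absolute log2 fold change divided by the square root of its F statistic. DESeq2 1.42.0, other scalings, no filter, stricter gates, kept doublets, a stricter mitochondrial limit, a replicate block and leaving out each library were the alternatives; the scripts were tested on simulated data. Named are all 8 members, pathway genes that passed (lists of other locus, transcription, endosomal, surface and receptor genes) and the 6 genes most like the core with a mean of at least 20 CPM, by Pearson's r of log2(CPM + 1). Shares are with and without thinning to 1000 or 2000 UMIs; Wilson intervals (95%) and limits of 3 counts for a 0 cover counting error only. The gate markers Cd4 and Prdm1 are also pathway genes. Promoter sequences are RefSeq's (GRCm38.p6), and gene positions are those of the mm10 annotation. H2-Ea and the erythroid marker Ahsp were not analysed here. Replicate numbers were not taken to pair the libraries: within-group deviations of same-numbered libraries correlated from −0.158 to 0.345 over the 7 comparisons.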

Additional observations from a re-analysis of the deposited data

Results flagged for a closer look

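Ciita values of the adenosine libraries lay above both control libraries in conventional dendritic cells and mature B cells and below both in plasmacytoid dendritic cells. In the first pair of classes Ciita did not pass edgeR's test (adjusted p = 1 in each), and plasmacytoid dendritic cells were not fitted, so how many other genes separate the groups there was not counted. The log2 of the adenosine mean CPM over the control mean CPM was 0.36 in conventional dendritic cells and 0.36 in mature B cells, against −0.59 in plasmacytoid dendritic cells, which had 38.2 and 66.2 CPM in the adenosine libraries, against 83.4 and 74.0 CPM in the control libraries. The difference between plasmacytoid dendritic cells and the other classes was not tested, since control 2 held 22 plasmacytoid dendritic cells.

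Class II RNA was also found in barcodes removed as doublets, which entered comparisons only in the alternative with doublets kept. It was found as well in cells between gates, which in the main comparisons entered only the sums over all cells. By unsupervised clusters such cells could enter a class. Barcodes removed as doublets had a mean of 18.1 and 49.7 UMIs of H2-Aa, H2-Ab1, H2-Eb1 and Cd74 per barcode in the adenosine libraries, against 35.0 and 31.4 in the control libraries, where T cells had 0.292 and 0.853, against 0.650 and 0.658. Cells between gates had 21.0 and 18.0 with adenosine, against 29.5 and 190.0 with the empty control. Of the between-gate cells, those in clusters led by conventional dendritic cell markers numbered 32 and 20 with adenosine, against 46 and 59 with the empty control, and held 75.9% and 63.4% of the between-gate UMIs of these 4 genes, against 85.6% and 87.7%.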

How the results depend on the processing

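With 2 libraries a group and 63 to 110 conventional dendritic cells a library, the standard error of the H2-Aa change with adenosine ran from 0.37 to 0.92 log2 units over the 7 comparisons, and levels near those of T cells cannot be told apart from free RNA. The alternatives below show which counts and values moved; the cause was not tested.

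For adenosine against control, edgeR called no gene. DESeq2 called 19 genes over all cells, 43 in neutrophils, 10 in classical monocytes and 8 in macrophages. With no filter on low counts edgeR called 543 genes in neutrophils (2 members, H2-Aa and H2-Eb1), 428 in classical monocytes, 127 in nonclassical monocytes, 138 in macrophages, 59 in conventional dendritic cells and 18 in mature B cells. With the replicate number as a block, 4 genes were called in mature B cells and 0 in the other 6 comparisons, and 0 members in any; same-numbered libraries did not deviate together (r −0.094 over all cells, −0.051 in neutrophils, 0.093 in classical monocytes, −0.158 in nonclassical monocytes, 0.080 in macrophages, −0.104 in conventional dendritic cells) except in mature B cells (0.345). With the numbers crossed, a pairing added after seeing the data, 2 genes were called in nonclassical monocytes and 24 in conventional dendritic cells, 0 of them members. Leaving out 1 library at a time gave 0 to 4034 genes in neutrophils (0 to 3 members), 0 to 303 in classical monocytes, 0 to 105 in nonclassical monocytes, 0 to 114 in macrophages, 0 to 356 in conventional dendritic cells and 0 to 14 in mature B cells. The log2 fold change of H2-Aa then ranged from −2.65 to 0.11 in classical monocytes, −2.69 to 0.065 in nonclassical monocytes, −0.15 to 1.15 in macrophages, −0.72 to 0.042 in conventional dendritic cells and −0.36 to 0.13 in mature B cells. Unsupervised classes left too few cells for nonclassical monocytes and macrophages, and the stricter gate for nonclassical monocytes.

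For conventional dendritic cells against macrophages, 8 members were called with no filter and 8 by unsupervised clusters, against 3, and 1 to 8 with 1 library left out. For mature B cells against precursors DESeq2 called 2320 genes, against 3658. For macrophages against classical monocytes, 1294 to 3406 genes and 4 to 8 members were called with 1 library left out. For nonclassical against classical monocytes, unsupervised clusters called 3909 genes and 6 members, and leaving out 1 library 1463 to 2610 genes and 1 to 4 members. Signs turned there under the stricter gate (H2-Aa 0.21, H2-Ab1 0.14, H2-Eb1 0.16, Ctss 0.14), with no filter (Cd74 −0.0033), with doublets kept (Cd74 −0.080) and by unsupervised clusters (Ctss 0.25). With 1 library left out they ranged from −0.68 to 0.25 for H2-Aa, −0.68 to 0.15 for H2-Ab1, −0.82 to 0.25 for H2-Eb1, −0.21 to 0.48 for Cd74 and −0.36 to 0.019 for Ctss. For T cells against neutrophils, 3 members were called with library size alone and 0 with doublets kept, where H2-Ab1 (0.051), Cd74 (0.79) and Ciita (1.19) turned sign. Of the other single-gene values of class comparisons with all libraries, 474 kept direction and call, 18 passed anew and 10 lost their call; with 1 library left out 216 kept both, 8 passed anew and 17 lost their call.

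For the differences between classes, macrophages against mature B cells gave 0 genes with RLE scaling, 11 with no filter and 0 to 53 with 1 library left out. Conventional dendritic cells against mature B cells gave 11 with no filter and 1 to 14 with 1 library left out, and neutrophils against classical monocytes gave 0 to 1473 with 1 library left out. The H2-Aa difference then ranged from −0.56 to 0.085 in conventional dendritic cells against mature B cells and from −1.29 to 0.47 in neutrophils against classical monocytes.

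The mean share of cells with an H2-Aa UMI, thinned to 1000 UMIs, was 89.8% in conventional dendritic cells, 70.3% in macrophages, 90.2% in mature B cells, 23.2% in classical monocytes, 46.0% in plasmacytoid dendritic cells, 4.02% in neutrophils and 1.05% in T cells. Thinned to 2000 it was 93.0% in conventional dendritic cells and 95.2% in mature B cells. Conventional dendritic cells by unsupervised clusters held 34.9% of the core UMIs on average, against 22.8% by the gate.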
